A study of Mus musculus with 185 samples.

Results

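Activated Tcf21-traced cells of the infarcted mouse heart differed from one another in the surface antigen gene Ly6c1, and the 44 cells of that class were divided here into 28 cells with Ly6c1 above 5 TPM and 16 cells without. The series holds 141 other single cells of 8 further classes. Because the sets were selected on a measured value, every difference between them is given as a description, with no test. TPM is a transcript abundance scaled for gene length and to the same total in each cell. All levels below are log2 (TPM+1), so the dividing value lies at 2.58, and differences are the mean of the Ly6c1-detected cells minus the mean of the Ly6c1-undetected cells.

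The study followed fibroblast lineages in the heart with inducible Cre alleles. Non-myocyte cells were dissociated from microdissected left ventricle, sorted for viable cells without the endothelial antigen CD31 and the leukocyte antigen CD45, captured singly on a microfluidic chip, and classed as traced or untraced by eGFP under the microscope. All cells came from C57BL/6 mice (backcross N=6) of about 5 months of age. Infarction was by permanent ligation of the left coronary artery.

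The 44 cells came from Tcf21 MCM/+; R26-eGFP mice, in which tamoxifen activates MerCreMer in cells that use the Tcf21 locus and eGFP then stays on for good. They were harvested 7 days after infarction. The MerCreMer cassette sits in 1 copy of Tcf21, so these mice carry a single intact allele. The label of the class names tracing or TCF21, so eGFP may not mark every cell of it. All 44 cells were in 1 capture, named Nov4, which also held 19 activated cells with Postn and no eGFP. The other classes used here are 24 activated Postn-negative and 27 activated Postn-traced infarct cells of the Jul29 capture, the latter marked by MerCreMer in 1 copy of Postn, 29 untraced activated cells from the scar in the Nov11 capture, whose genotype the labels do not give, and 17 resident Tcf21-traced and 12 resident Postn-negative cells of uninjured hearts in the Jul24 capture. Classes were named partly by Postn expression. Each group had 3 mice, with no map from cells to mice. Each class therefore counts as 1 sample, cells are not replicates, and SDs are between cells.

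Ly6c1 encodes a small glycosylphosphatidylinositol-anchored protein of the Ly6/uPAR family and is part of the Ly6C antigen known from monocytes, some lymphocytes and some endothelial cells. Its neighbour Ly6a encodes Sca-1, which is widely used to mark progenitor-like and adventitial fibroblasts. Tcf21 marks the resident fibroblasts of the heart, and Postn encodes periostin, a matrix protein that fibroblasts secrete when they become myofibroblasts after injury.

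Ly6c1 lies on the reverse strand of chromosome 15 at chr15:75044018-75048920 of GRCm38.p6, the build called mm10, between Ly6a at chr15:74994877-74998031 and its near copy Ly6c2 at chr15:75108161-75112066. The coding sequences of Ly6c1 and Ly6c2 have 393 bases each and are the same at 384 of them (97.7%). The first 150 coding bases are shown, and capitals mark the 6 bases that differ.
Ly6c1: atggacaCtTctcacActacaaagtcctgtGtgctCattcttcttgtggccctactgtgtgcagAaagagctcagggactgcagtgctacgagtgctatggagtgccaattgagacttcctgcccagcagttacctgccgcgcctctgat
Ly6c2: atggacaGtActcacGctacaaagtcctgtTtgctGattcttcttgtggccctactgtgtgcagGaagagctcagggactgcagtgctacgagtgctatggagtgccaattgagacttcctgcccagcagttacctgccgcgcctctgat
In the main Ly6c1 transcript of GENCODE, 114 of 745 stretches of 100 bases, the read length, (15.3%) also occur in a Ly6c2 transcript. Reads from those stretches cannot be assigned to Ly6c1 by sequence alone. Ly6c2 was above 5 TPM in 1 of the 28 Ly6c1-detected cells and 0 of the 16 others, which allows a share of up to 20.6% there by the exact interval.

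Across the 44 cells Ly6c1 took low or high values with few between. In the 28 detected cells it ran from 2.61 through a median of 9.32 to 12.25. In the 16 undetected cells the median was 0 and the highest value 2.42, with 11 cells listed at 0. The cell just inside the minimum stood at 2.61 (5.10 TPM), followed by 6.33 and 6.56, and those just outside at 2.42 (4.36 TPM) and 2.32. Only 1 detected cell thus lay near the dividing value.

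**Figure D1:**
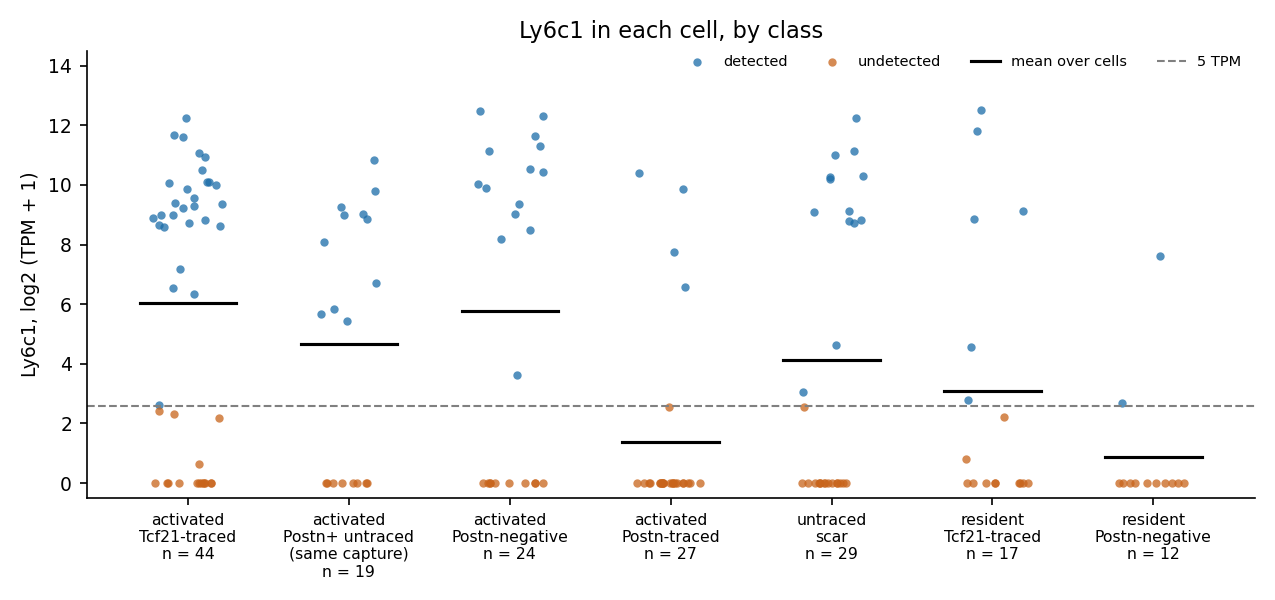
Ly6c1 in log2 (TPM+1) on the y axis for each cell (points) of 7 classes, coloured by whether Ly6c1 was above 5 TPM (dashed line), with the mean over cells as a black line. Among activated Tcf21-traced cells most detected values lie above 6 and most undetected values at 0, and the class mean of 6.03 falls in the gap between them.

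Ly6c1 was above 5 TPM in 63.6% of these cells (28 of 44, exact 95% Clopper-Pearson interval 47.8% to 77.6%). The mean over all 44 was 6.03 (SD 4.54). Intervals here and below cover counting error only. The share was 57.9% (11 of 19, 33.5% to 79.7%) in the untraced Postn-positive cells of the same capture and 58.3% (14 of 24, 36.6% to 77.9%) in the activated Postn-negative cells, with means of 4.66 (SD 4.31) and 5.77 (SD 5.26). Untraced scar cells followed with 44.8% (13 of 29, 26.4% to 64.3%) and a mean of 4.14 (SD 4.81). Of the 29, 6 undetected cells had 141 to 1560 genes above 5 TPM, under 50% of the class median, and 5 of them had 141 to 264. Without these 6, left out after the data were seen, the scar share was 56.5% (13 of 23, 34.5% to 76.8%) and the mean 5.22 (SD 4.86). Resident Tcf21-traced cells had 35.3% (6 of 17, 14.2% to 61.7%) and a mean of 3.10 (SD 4.53). The lowest shares were 16.7% (2 of 12, 2.09% to 48.4%) in resident Postn-negative cells and 14.8% (4 of 27, 4.19% to 33.7%) in activated Postn-traced cells, with means of 0.86 (SD 2.26) and 1.38 (SD 3.19). Among these 7 classes the order by mean ran from activated Tcf21-traced through activated Postn-negative, untraced Postn-positive, scar, resident Tcf21-traced and activated Postn-traced to resident Postn-negative cells, and each step between neighbours was smaller than their SDs. Without the 6 cells the scar class moved above the untraced Postn-positive cells. Classes of different captures also differ by capture, and the 2 cannot be told apart.

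Both sets were fibroblasts by their markers. All 28 detected and all 16 undetected cells had at least 3 of 10 fibroblast genes above 5 TPM, with a median of 9 in each set, and the median difference of the 10 was 0.41. Dcn, which encodes the proteoglycan decorin, was the most abundant of the 10 and had a mean of 12.89 (SD 1.19) in the detected and 12.83 (SD 1.42) in the undetected cells. Pdgfra, a receptor typical of fibroblasts, was above 5 TPM in 26 of 28 and 13 of 16 cells. Tcf21 itself was above the minimum in 18 of 28 cells (64.3%, 44.1% to 81.4%) and 8 of 16 (50%, 24.7% to 75.3%), intervals that overlap.

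Of the cell types in which Ly6C is best known, myeloid and lymphocyte markers were near 0 and endothelial markers were low, with 2 exceptions. Of 9 endothelial genes in the table, Kdr, Tie1, Emcn and Esam were listed at 0 in all 44 cells, Pecam1 was above 5 TPM in 2 detected cells, and no cell had 3 of the genes. The exceptions were the receptor gene Tek, above 5 TPM in 10 of 28 detected and 2 of 16 undetected cells, and Eng, also used by fibroblasts, in 15 of 28 and 10 of 16. Eng was the most abundant of the list, and the summed list had a mean of 59.5 TPM in the detected and 101 TPM in the undetected cells. Of 12 myeloid genes, Ptprc, Cd68, C1qa, C1qb, Tyrobp and Fcer1g were among 8 listed at 0 throughout. The most abundant was Lyz2, and the myeloid sums had means of 6.69 and 12.6 TPM. The lymphocyte list had 2 genes in the table and sums of 0 and 0.193 TPM, with Cd79a the most abundant and Nkg7 at 0. The sort had removed cells with CD31 or CD45 protein.

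Other lists of cell types were low in both sets. Pericyte genes summed to means of 167 and 123 TPM, mostly Pdgfrb, with 3 of them in 1 detected and 2 undetected cells. Epicardial genes summed to 12.1 and 11.9 TPM, with Tbx18 the most abundant and Upk3b, Upk1b, Msln, Krt8, Krt18 and Lrrn4 at 0. Cardiomyocyte genes summed to 21.1 and 0.795 TPM, with Tnnt2 the most abundant, Mb at 0 and 1 detected cell with at least 3 genes. Schwann cell genes summed to 49 and 1.89 TPM, mostly the broadly used Cnp, with Sox10 and Gfra3 at 0. The part of these low levels in the differences below was not tested.

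The Ly6c1-detected cells had more genes detected. The number of genes above 5 TPM in a cell ran from 1815 through a median of 3352 to 5023 in the detected cells, and from 1822 through 2753 to 4619 in the undetected cells. The means were 3448 (SD 853) and 3045 (SD 981), so the 2 sets overlapped over nearly their whole ranges and the difference of medians, 598.5 genes, was smaller than the SD. The 10 most abundant genes took a median of 9.47% of TPM in each set, and ribosomal protein genes took 12.9% and 12%.

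**Figure D2:**
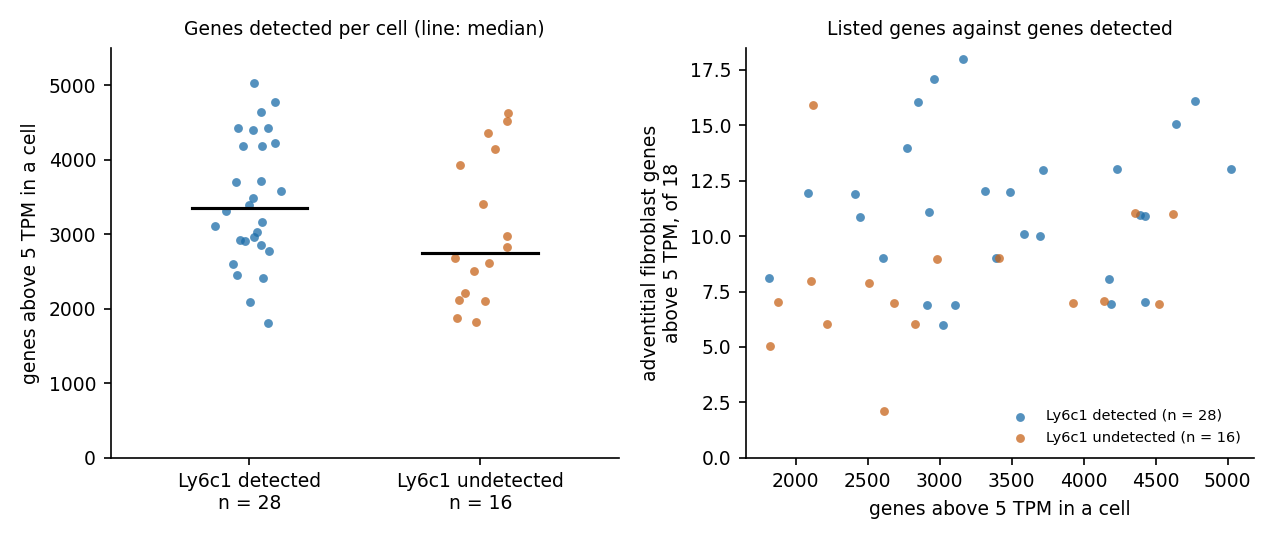
Left, genes above 5 TPM in each of the 44 cells (points) by set, with the median as a line. Right, the number of 18 adventitial fibroblast genes above 5 TPM in a cell against its number of genes above 5 TPM. Detected cells have the higher medians on both measures, and the sets overlap on both.

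Of the 17171 genes in the table, 5794 were above 5 TPM in at least 20% of the 44 cells and were compared, Ly6c1 left out. The mean was more than 2 log2 units higher in the detected cells for 187 genes (3.23%) and more than 2 log2 units lower for 34 (0.587%). The median difference over all 5794 genes was 0.27 and 63.1% of them were positive, so list medians are read beside 0.27. SDs between cells were wide, with a median over genes of 2.76, and the difference exceeded the pooled SD for 24 of the 221 genes past 2 log2 units. With the number of genes detected per cell as a further term in a linear fit, the median difference was -0.05 and the split became 94 higher and 114 lower. With each cell centred on the median of its own genes above 5 TPM, the split was 282 higher and 15 lower.

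The genes highest in the Ly6c1-detected cells included the central complement component C3, the stromal surface protein Cd248 (endosialin), the secreted serine protease Htra3, and the peptidase inhibitor Pi16, a marker of adventitial fibroblasts. C3 ran from 0 through a median of 8.56 to 11.77 in the detected cells and from 0 through 3.97 to 8.57 in the undetected cells. The means were 7.68 (SD 2.80) and 3.75 (SD 3.54), a difference of 3.93, and C3 was above 5 TPM in 27 of 28 and 9 of 16 cells. The ranges overlapped, but as many detected cells lay above the highest undetected cell as below it.

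Cd248 had medians of 6.25 and 0, with highest values of 9.37 and 7.95. It was above 5 TPM in 23 of 28 detected cells (82.1%, 63.1% to 93.9%) and 5 of 16 undetected cells (31.3%, 11% to 58.7%), and its means differed by 3.66. Cd248 was named for its large difference, so these shares describe it only. Htra3 had means of 8.06 (SD 2.73) and 4.29 (SD 3.86), a difference of 3.77. Pi16 had medians of 7.29 and 2.08 and a difference of 3.30, within its pooled SD of 3.57.

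Tmem100, a transmembrane protein known from vessels and sensory neurons, was rarely detected in the undetected set. It was above 5 TPM in 17 of 28 detected and 2 of 16 undetected cells, with medians of 5.14 and 0. The difference was 3.87, or 2.34 in cells without a Y-linked gene. Lipa, the lysosomal acid lipase, had medians of 5.86 and 0.61 and a highest undetected value of 5.70, and differed by 3.39. Ifi27l2a, an interferon-inducible gene, reached 13.21 in a detected cell, and its difference of 3.36 was smaller than its pooled SD of 4.65.

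The remaining genes of the 15 with the largest positive differences have broad cellular roles. They were the translation factor subunit gene Eif3m (3.58), the iron-sulfur cluster gene Isca1 (3.58), the vesicle fusion gene Use1 (3.52), Cuta (3.42), the sterol carrier gene Scp2 (3.36), the small modifier gene Sumo3 (3.35), Commd1 (3.33) and the PDZ-LIM gene Pdlim2 (3.29). Of the 15, 11 differed by more than their pooled SD, and the ranges of the 2 sets overlapped for all 15. With the log2 of mean TPM 9 of the 15 stayed past 2 log2 units, and Htra3 (1.56) and Pi16 (1.79) were among those that did not.

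The genes lower in the Ly6c1-detected cells were led by Gpbp1, which encodes a protein that binds GC-rich promoters. Gpbp1 had medians of 0 and 5.68, was above 5 TPM in 9 of 28 detected and 13 of 16 undetected cells, and differed by -3.62. It was the only 1 of the 15 largest negative differences to exceed its pooled SD. Thbs1, the matricellular protein thrombospondin 1, which can activate latent TGF-beta, ran from 0 through 3.21 to 10.04 in the detected cells and from 0 through 7.40 to 11.48 in the undetected cells. Its means were 3.69 (SD 3.50) and 6.67 (SD 3.43), a difference of -2.97. Both sets held cells at 0, and of the detected cells only the highest lay above 10.

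Col27a1, a fibrillar collagen known from cartilage, was above 5 TPM in 5 of 28 and 9 of 16 cells and differed by -2.73. The O-glycosylation enzyme gene Galnt2 differed by -2.67 and the cyclic AMP phosphodiesterase gene Pde4b by -2.62. Ccnl1, a cyclin linked to RNA splicing, was above the minimum in all 16 undetected cells and 22 of 28 detected cells, and differed by -2.21. The others were 1110001J03Rik (-3.01), Eif3g (-2.84), Nmd3 (-2.49), Mrpl14 (-2.39), Gps1 (-2.35), Arih1 (-2.33), Plgrkt (-2.30), Banf1 (-2.26) and Ndufs6 (-2.23). In cells without a Y-linked gene Arih1 (-1.06), Banf1 (-1.67) and Ndufs6 (-1.47) were no longer past 2 log2 units. In cells with one, 11 detected and 3 undetected, Galnt2 (0.22), Eif3g (0.37), Nmd3 (1.42) and Gps1 (1.39) were positive. The rest of the 15 were negative there. Again the ranges overlapped for all 15.

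**Figure D3:**
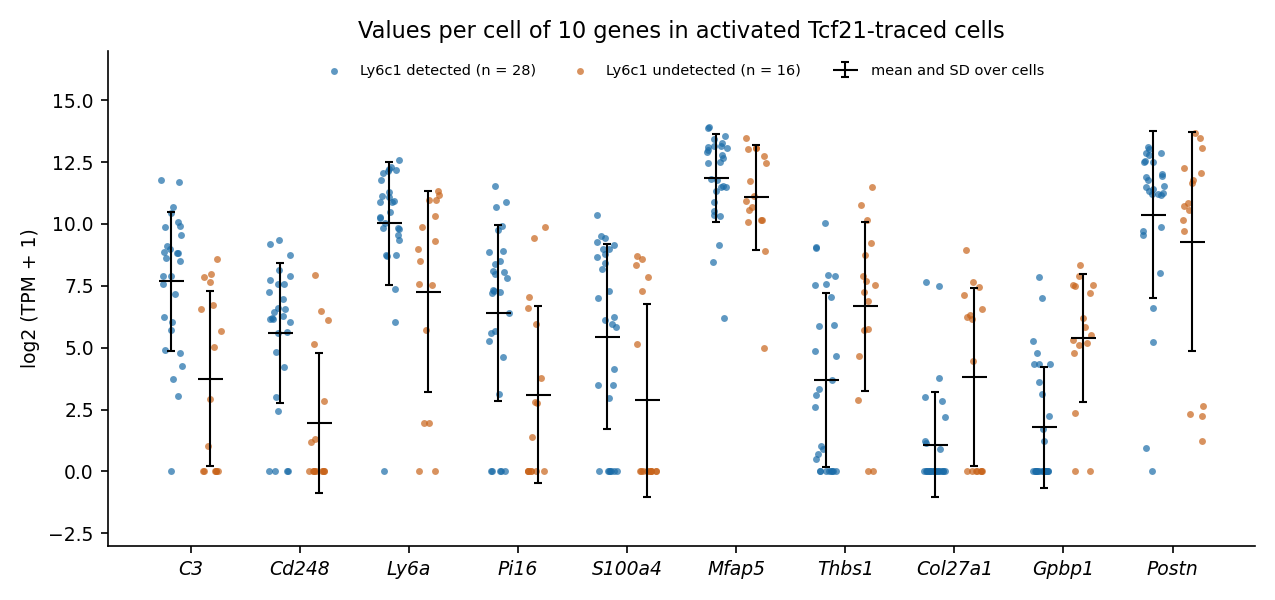
Log2 (TPM+1) in each cell (points) for 10 genes in the 28 Ly6c1-detected and 16 Ly6c1-undetected cells, with the mean and SD over cells in black. C3, Cd248, Ly6a, Pi16 and S100a4 lie higher and Thbs1, Col27a1 and Gpbp1 lower in the detected cells, Mfap5 and Postn are high in most cells of both sets, and all 10 overlap.

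Adventitial fibroblast genes were higher as a group. All 15 of the 18 listed genes that were compared had positive differences, with a median of 1.62 beside 0.27 over all genes, and 4 were past 2 log2 units (Cd248, Pi16, Ackr3 and Ly6a) beside 3.23% of all genes. In the 30 cells without a Y-linked gene the list median was 0.84 beside 0.12 over all genes. There 3 of the 15 were negative and 2 stayed past 2 log2 units, beside 206 higher genes in all. Ly6a ran from 0 through 10.38 to 12.57 in the detected cells and from 0 through 8.73 to 11.32 in the undetected cells. Its means were 10.02 (SD 2.50) and 7.26 (SD 4.07), and it was above 5 TPM in 27 of 28 and 12 of 16 cells, so most Ly6c1-undetected cells still had Ly6a.

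Ackr3, a scavenging receptor for the chemokine Cxcl12, was above 5 TPM in 17 of 28 and 4 of 16 cells. It differed by 3.01, or 1.79 in cells without a Y-linked gene. Smaller differences over the 44 cells were found for the complement regulator Cd55 (1.83), the semaphorin Sema3c (1.80), Igfbp6 (1.73), the ferritin receptor Scara5 (1.62), the hyaluronan synthase Has1 (1.52) and dermatopontin, Dpt (1.38). In cells without a Y-linked gene Cd55 (-0.01) and Has1 (-0.31) turned negative, and Igfbp6 (0.63) and Scara5 (0.84) fell. Mfap5, a microfibril gene and the most abundant of the list, differed by 0.78, and Cd34 by 0.05. The marker Dpp4 was not compared, being above 5 TPM in 3 detected cells and 1 undetected cell. Efhd1 was not compared either, with 6 of 28 and 0 of 16 cells.

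Counted per cell, adventitial genes above 5 TPM ran from 6 through a median of 11 to 18 of 18 in the detected cells, and from 2 through 7 to 16 in the undetected cells. The means were 11.3 (SD 3.28) and 7.88 (SD 3.07). In the other classes the medians were 11 in activated Postn-negative cells, 9 in resident Tcf21-traced cells, 9 in untraced Postn-positive cells of the same capture and 8 in Postn-traced cells. The detected set also had the larger number of genes detected per cell, and the part of that number in this count was not tested. In the fit with that number as a term the median of the list was 1.62, and with the log2 of mean TPM it was 0.80.

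Most genes of the myofibroblast had small differences. Of 13 compared genes of the 14-gene panel chosen by the study on these samples, 0 were past 2 log2 units, beside 3.23% of all genes higher and 0.587% lower, and the median was 0.43, or -0.13 in the fit with genes detected. Postn was above 5 TPM in 26 of 28 detected (92.9%, 76.5% to 99.1%) and 13 of 16 undetected cells (81.3%, 54.4% to 96.0%), with means of 10.37 (SD 3.38) and 9.28 (SD 4.43) and a difference that turned from 1.09 to -0.13 in that fit. Col1a1, the main fibrillar collagen chain, had means of 9.13 (SD 1.74) and 8.93 (SD 2.10), a difference of 0.20 that turned to -0.28. The microfibril gene Mfap2 (1.97) and fibrillin 1, Fbn1 (1.45), had the most positive differences of the panel. Mfap2 was 0.88 in the fit and 0.68 in cells without a Y-linked gene, where Fbn1 (1.54) and the collagen gene Col3a1 (1.19) were the most positive.

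The most negative difference of the panel was that of Acta2, smooth muscle actin, at -1.43. It passed 2 log2 units in the fit (-2.51) and in cells without a Y-linked gene (-2.20). In cells with one, 11 detected and 3 undetected, Acta2 had the opposite sign (2.32). Acta2 was above 5 TPM in 12 of 28 detected (42.9%, 24.5% to 62.8%) and 10 of 16 undetected cells (62.5%, 35.4% to 84.8%). Smooth muscle contractile genes had the lowest list median on the mean of log2 values, -0.73 over 8 compared genes (-1.43 in the fit and -0.51 with cells centred), with 6 negative and 0 past 2 log2 units, beside 0.587% of all genes lower. In the fit 3 of the 8 were more than 2 log2 units lower, beside 114 of 5794 genes. These 3 were Acta2 (-2.51), Tagln (-2.93) and Tpm2 (-2.01). In the cells with a Y-linked gene Tpm2 (1.94) was positive and Tagln (-3.08) negative. Tagln, the actin-binding protein transgelin, had means of 3.40 (SD 3.81) and 5.19 (SD 4.56), a difference of -1.80. Tpm2 differed by -0.86 and Cald1 by -0.24, while Tpm1 (0.75) and Myl9 (0.50) were positive. All of these differences of means were smaller than the SDs.

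**Figure D4:**
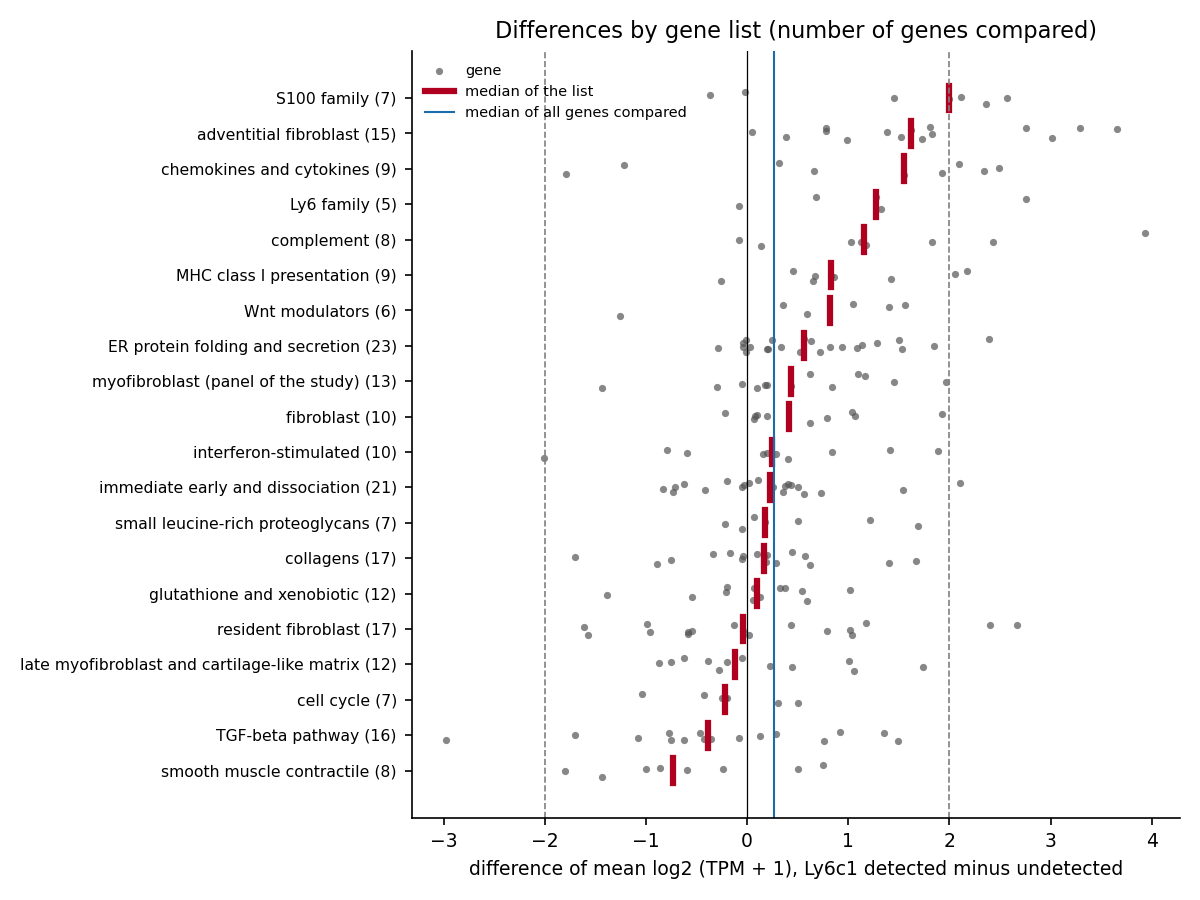
Difference of mean log2 (TPM+1), Ly6c1-detected minus Ly6c1-undetected cells, on the x axis for each compared gene (points) of the 20 lists with at least 5 compared genes, with the median of each list in red and that of all genes in blue. S100 and adventitial genes have the highest medians on this measure, though not the S100 genes in the fit with genes detected, smooth muscle contractile genes have the lowest, though cell cycle genes do with the log2 of mean TPM, and dashed lines mark 2 log2 units.

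The S100 family of calcium-binding proteins had the highest list median, equal to 2.0 over 7 compared genes, with 3 past 2 log2 units beside 3.23% of all genes. In the fit 0 of the 7 were past 2 log2 units, beside 94 of 5794 genes higher. In cells without a Y-linked gene 1 of the 7 was, beside 206 higher genes in all under the filter on those cells. That median depended on the measure and the cells, at 1.17 in the fit with genes detected, 0.83 with medians over cells, 0.49 with the log2 of mean TPM and 0.48 in cells without a Y-linked gene. S100a4, also known as fibroblast-specific protein, was above 5 TPM in 21 of 28 detected cells (75%, 55.1% to 89.3%) and 6 of 16 undetected cells (37.5%, 15.2% to 64.6%), and its means differed by 2.57. S100a10, the partner of annexin A2, was above 5 TPM in 28 of 28 and 15 of 16 cells, with means of 10.17 (SD 1.16) and 8.05 (SD 3.20). S100a1 differed by 2.37. The abundant members S100a6 (-0.37) and S100a11 (-0.02) did not follow, and S100a6 had means of 10.51 (SD 0.81) and 10.88 (SD 0.44).

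Complement genes had a median of 1.15 over 8 compared genes (0.25 without Y-linked gene cells), led by C3 and the initiating protease gene C1ra (2.43, or 1.85 without those cells). The inhibitor gene Serping1 differed by 1.13, and the protease gene C1s by 0.14. Chemokine and cytokine genes had a median of 1.55 over 9, which was 0 with medians over cells and 0.09 in cells without a Y-linked gene. Csf1, which supports macrophages, was above 5 TPM in 21 of 28 and 4 of 16 cells and differed by 2.49. The alarmin Il33 (2.34) and the chemokine Ccl19 (2.10) were also past 2 log2 units, while Cxcl1 (-1.79) and Cxcl12 (-1.21), the ligand of Ackr3, were negative. Il33 fell under 2 log2 units in the fit with genes detected (1.90). In cells without a Y-linked gene Csf1 (1.73) and Ccl19 (1.38) fell under 2 log2 units, while Cxcl1 reached -3.19 and Cxcl12 -2.11.

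Genes of MHC class I presentation had a median of 0.83 over 9, with H2-K1 (2.18) and H2-D1 (2.05) past 2 log2 units and B2m at 0.83. H2-D1 was 1.97 in the fit, 0.61 with the log2 of mean TPM and 0.53 with medians over cells. H2-K1 was 2.38 in cells without a Y-linked gene and -1.61 in those with one (11 detected and 3 undetected). With the log2 of mean TPM H2-K1 was 1.24. The 10 interferon-stimulated genes that were compared had a median of 0.24. Among them Ifi27 was lower in the detected cells by over 2 log2 units (-2.01), Gbp2 differed by 1.88, and the abundant Ifitm2 (0.41) and Ifitm3 (0.29) differed little. Ifi27 was -2.76 in the fit, -1.79 with cells centred and -1.76 in cells without a Y-linked gene, where Gbp2 reached 2.23. Canonical members such as Isg15 and Ifit1 were above 5 TPM in 1 detected cell each and were not compared.

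Genes of the resident fibroblast had a median of -0.05 over 17 compared genes. It turned to 0.46 in the fit and 0.17 with cells centred, and was -0.66 with the log2 of mean TPM. Ifi205 (2.66) and Plac9b (2.40, or 1.40 in cells without a Y-linked gene) were past 2 log2 units. With the log2 of mean TPM they were 0.12 and 0.73. Ifi205 was 4.20 in cells without a Y-linked gene and -3.99 in those with one (11 detected and 3 undetected). The matrix Gla protein gene Mgp (-1.57) and the steroid enzyme gene Hsd11b1 (-1.61) had the most negative differences. Without Y-linked gene cells these were -0.70 and -0.57, and the transporter gene Abca8a (-1.70) was the most negative. The TGF-beta pathway had a median of -0.39 over 16 (-0.78 in the fit, -0.10 with medians over cells), with Thbs1 past 2 log2 units. The ligand genes diverged, Tgfb2 at -1.70 and Tgfb3 at 1.49, or -2.18 and 0.78 in the fit and -1.96 and 2.10 in cells without a Y-linked gene. Genes of protein folding and secretion had a median of 0.57 over 23, which turned to -0.06 in the fit. The isomerase gene Pdia6 was past 2 log2 units (2.39). In the fit Pdia6 stood at 1.85. There 0 of the 23 were past 2 log2 units, beside 94 of 5794 genes higher and 114 lower.

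Further lists had smaller medians. They were 0.16 over 17 collagens, 0.17 over 7 small leucine-rich proteoglycans, 0.22 over 21 immediate early and dissociation genes, 0.09 over 12 glutathione and xenobiotic genes, -0.12 over 12 late myofibroblast and cartilage-like matrix genes and -0.22 over 7 cell cycle genes, of which that of collagens turned to -0.33 in the fit and that of late myofibroblast genes to 0.09 with cells centred. In the fit, late myofibroblast genes stood at -0.66 and cell cycle genes at -0.97, beside -0.05 over all genes. Immediate early genes turned to -0.28 in cells without a Y-linked gene and -0.15 with medians over cells, and glutathione genes to -0.43 with the log2 of mean TPM. In cells without a Y-linked gene the medians were 0.59 for collagens and 0.44 for glutathione genes. Among the collagens Col14a1 (1.67) and Col15a1 (-1.70) lay at the ends. Of the immediate early genes only Klf4 was past 2 log2 units (2.10). It was 1.98 in cells without a Y-linked gene and 1.08 with the log2 of mean TPM. Wnt modulators had a median of 0.82 over 6, with Sfrp1 at 1.56, and the median was 0.22 in the fit, -0.13 with the log2 of mean TPM and 2.35 with medians over cells. The 5 compared genes of the Ly6 family had a median of 1.27 with Ly6e at 1.32, and the median was 0.85 in the fit, 0.57 in cells without a Y-linked gene and 0.45 with medians over cells. The 2 endothelial genes compared went opposite ways, Tek at 0.73 and Eng at -0.84, with a median of -0.06 (0.14 in the fit, 0.16 centred, -0.89 with the log2 of mean TPM and -0.49 without Y-linked gene cells, where both were negative). Pdgfrb was the 1 pericyte gene compared (0.90), Tbx18 was the 1 epicardial gene (0.03, or -0.15 in the fit), and no myeloid, lymphocyte, cardiomyocyte or Schwann cell gene was compared.

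Across the 44 cells the highest Pearson correlations of Ly6c1 were those with Cd248 (r = 0.552), Tmem100 (0.548), Lipa (0.538), C3 (0.529) and the ribosomal protein gene Rpl34 (0.526). The lowest were those with Gpbp1 (-0.535), Pde4b (-0.467), Galnt2 (-0.460), Col27a1 (-0.438) and the acetyltransferase gene Kat6a (-0.436). The cells share a capture and differ in genes detected, and Ly6c1 itself took 2 groups of values, so r mostly restates the division. Rpl34 was above 5 TPM in every cell, with means of 10.59 (SD 0.82) and 9.13 (SD 1.73).

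Sex-linked genes showed that the capture held cells of more than 1 mouse. A Y-linked gene was above 5 TPM in 11 of 28 Ly6c1-detected cells (39.3%, 21.5% to 59.4%) and 3 of 16 undetected cells (18.8%, 4.05% to 45.6%), and Xist in 11 and 8 cells. The 3 compared genes of the sex-linked list had a median difference of 0.82. Both were found in 3 detected cells, which had 4229 to 4774 genes above 5 TPM. Without the cells that had a Y-linked gene, in 17 detected and 13 undetected cells, 114 of the 187 higher and 27 of the 34 lower genes stayed past 2 log2 units, and the counts became 206 higher and 131 lower. List medians moved too, among them those of S100, chemokine, complement, adventitial, Ly6 family and immediate early genes as given above, cell cycle genes from -0.22 to -0.78 and genes of protein folding from 0.57 to 0.30. These cells were left out after the data were seen. The part of the mouse of origin in the differences was not tested.

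The same division was made in 4 other classes that had at least 5 cells on each side. The genes of largest difference were not picked in these classes, but the lists were drawn up with results of the whole series known. Scar cells are given without the 6 low cells, all of them Ly6c1-undetected, and with them where that changes the value. Adventitial genes had medians of 3.62 in the activated Postn-negative cells (14 detected and 10 undetected), 1.20 in the untraced Postn-positive cells (11 and 8), 1.97 in the resident Tcf21-traced cells (6 and 11) and 3.05 in the scar cells (13 and 10), or 3.57 with the low cells. Over the 5794 genes the medians were -0.03, 0.57, 0.03 and 0.07, the last being 0.84 with the low cells. The list median was thus above that of all genes in each class.

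The median number of genes detected was 2359 in Ly6c1-detected against 2262 in undetected Postn-negative cells, 4001 against 3157 in untraced Postn-positive cells and 2333 against 2109 in resident Tcf21-traced cells. In scar cells it was 3232 against 3262, or 2568 for the undetected cells with the low ones. The part of these numbers in the differences was not tested.

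Of the 15 genes with the largest positive differences in the Tcf21-traced cells, 6 were positive in all 4 other classes (C3, Tmem100, Cd248, Use1, Ifi27l2a and Pi16). That is 40% of them, beside 19.8% of the 187 genes past 2 log2 units and 9.72% of all genes compared, or 22.5% and 13.9% with the low scar cells. Pi16 differed by 6.60 in the Postn-negative, 2.39 in the untraced Postn-positive, 1.45 in the resident Tcf21-traced and 5.19 in the scar cells (5.79 with the low cells). Cd248 differed by 4.04, 2.95, 2.79 and 2.90 (4.16) in the same order. Ly6a differed by 4.41, 7.40, 3.56 and 7.43 (8.63), more than the 2.76 of the activated traced class in each case.

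The 15 further list genes more than 2 log2 units higher were mixed in these classes. Ackr3, Il33, Ly6a, S100a4 and S100a10 were positive in all 4, with and without the low scar cells. With every cell kept, 6 of the 15 were negative in 1 class, Plac9b and S100a1 in 2, and Csf1 and H2-K1 in 3. Without the low scar cells Klf4 turned negative in the scar cells as well (-0.05). Csf1 differed by -0.33, -0.26, -0.27 and 1.31 (1.55 with the low cells) in the order above. Ifi27 is the list gene lower by over 2 log2 units that is not among the 15 largest negative differences. It differed by 2.19, 2.52, -1.63 and 0.67 (1.81 with the low cells). Its sign was thus opposite to that in the activated Tcf21-traced cells in 3 of the 4 classes.

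Several genes with broad roles kept their sign in fewer classes. Without the low scar cells Eif3m was negative in all 4 classes and Isca1 in 3, and with them in 3 and 2. Of the 15 genes with the largest negative differences, Gpbp1, Thbs1, Eif3g and Gps1 were negative in all 4, which is 26.7% of them beside 3.97% of all genes compared. With the low cells it was Thbs1 alone, 6.67% beside 2.19%. Thbs1 differed by -0.89, -0.16, -3.48 and -4.26 (-1.90 with the low cells), and Gpbp1 by -1.16, -0.44, -1.14 and -1.15 (0.67). Smooth muscle contractile genes had medians of -0.48, -0.33, 0.38 and -0.60, the last turning to 0.81 with the low cells, and so did not keep one sign. Within the list Acta2 was negative in all 4 (-0.73, -0.74, -0.67 and -1.60, or -0.84 with the low cells). Tagln changed sign between classes (0.71, -1.59, -0.13 and 0.54).

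**Figure D5:**
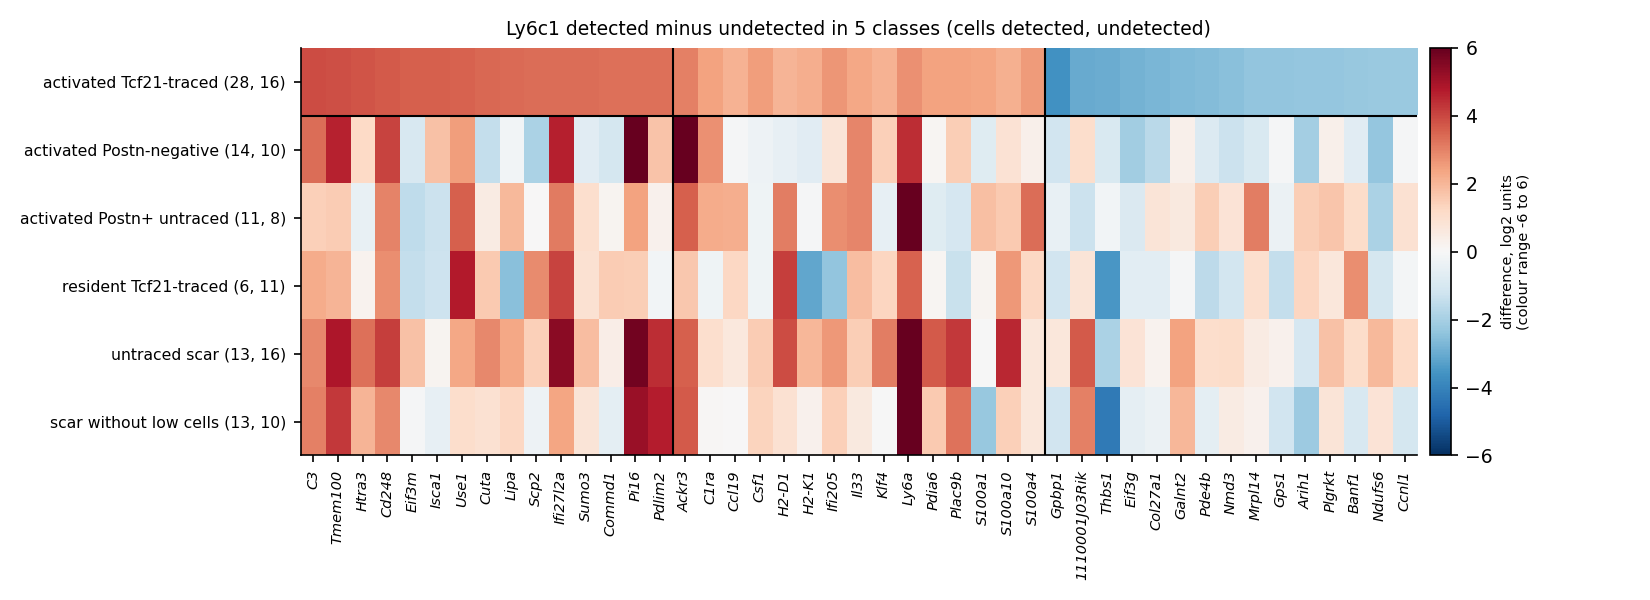
Difference of mean log2 (TPM+1), Ly6c1-detected minus Ly6c1-undetected cells, in colour for the 15 largest positive differences (left), the 15 further list genes more than 2 log2 units higher (middle) and the 15 largest negative differences (right), with activated Tcf21-traced cells in the top row and 4 other classes below, scar cells with and without 6 cells of few genes. Cell numbers stand in brackets. C3, Tmem100, Cd248, Use1, Ifi27l2a and Pi16 at the left and 5 of the 15 middle genes are red in every row, and Thbs1 is blue in every row.

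Set beside whole classes, the 2 sets of activated Tcf21-traced cells shared high Postn and differed in the adventitial genes as a list. The median of the 15 gene means was 6.11 in the detected and 3.90 in the undetected set, 6.19 in Postn-negative, 4.49 in resident Tcf21-traced, 3.94 in untraced Postn-positive and 3.82 in Postn-traced cells. Pi16 and Cd248, given next, were named for large differences, and Cd34 (0.05) and Mfap5 (0.78) differed little. Mean Postn was 10.37 and 9.28 in them, 11.81 in Postn-traced cells, 1.44 in Postn-negative infarct cells and 1.47 in resident Tcf21-traced cells. Mean Pi16 was 6.40 in the detected set, 6.91 in Postn-negative and 7.34 in resident Tcf21-traced cells, and 3.10 in the undetected set and 3.89 in Postn-traced cells. Cd248 had another order, with 5.60 in the detected set above 1.94 in the undetected set, 3.40 in Postn-traced, 3.78 in Postn-negative and 1.95 in resident Tcf21-traced cells. S100a4 was 5.44 in the detected set, 4.28 in the untraced Postn-positive cells of the same capture, 2.87 in the undetected set, 1.34 in Postn-traced and 0.44 in resident Tcf21-traced cells. The SDs of these means ran from 1.09 to 4.43, and all but the untraced Postn-positive class come from other captures.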

How the data were processed

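The deposited table holds log2 (TPM+1) of 17171 genes, with 1 cell per sample, from single-end reads of 100 bases. The submitters' processing notes name Bowtie 1.0.0, eXpress 1.5.1 and the build mm10. The header names TPM and the title FPKM. Converted back, each cell sums to between 999257 and 1000000, as TPM does. Read depth per cell is not known. Genes above 5 TPM, the minimum of the methods, stand in for it. The table has 3 columns without a sample, holding gene names and identifiers, which were not used.

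Class and capture came from the labels. Members and the 28 gene lists were chosen with earlier results of these data known. Genes above 5 TPM in 20% or more of the 44 cells were compared by the difference of mean log2 (TPM+1), a scale that understates differences of low genes. The genes named are the 15 largest differences in each direction among genes above 5 TPM in 50% or more of the higher set's cells, members of the lists, every list gene past 2 log2 units, and the 5 highest and 5 lowest correlations. Efhd1 and other genes under the 20% filter were named after their values were seen. With 1 sample per class no test was run. Shares have exact 95% Clopper-Pearson intervals. The difference of means was tested on simulated data. Alternatives were other minimums for Ly6c1, medians, linear means, pseudocounts, centring, a fit with genes detected, other cells kept and other gene filters. Gene positions are from RefSeq (GRCm38.p6) and transcripts from GENCODE. Values were computed in Python 3.11.15 with pandas 2.3.3 and NumPy 2.4.6, intervals with SciPy 1.17.1 and plots with Matplotlib 3.10.9. Doublets and the sort were not corrected for. The values of 1 listed gene are not reported here.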

Additional observations from a re-analysis of the deposited data

How the results depend on the processing

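The numbers of genes past 2 log2 units, 187 higher and 34 lower, depended on the processing. Higher genes numbered 511 and 288 with any Ly6c1 above 0 and with Ly6c1 above 1 TPM as the minimum. Higher and lower genes were 687 and 207 with medians over cells, 469 and 232 with the log2 of mean TPM, 680 and 163 with a pseudocount of 0.1, 37 and 5 with a pseudocount of 5, and 282 and 15 with each cell centred. They were 94 and 114 in the linear fit with genes detected, and 116 and 15 with a filter at 50% of cells, which leaves 2240 genes. Without cells that had a Y-linked gene, an alternative chosen after seeing the data, 131 genes were lower. Apart from the smaller number of genes under the filter, the cause was not tested. The difference of median genes detected stayed positive, between 408 and 903, in the alternatives run, and the difference of means was 403. The median over the genes compared ranged from -0.05 to 0.60. Of the 187 higher genes, 83 stayed past 2 log2 units in the linear fit and 37 with a pseudocount of 5, and of the 34 lower genes 12 did with any Ly6c1 above 0. Leaving out cells with under 50% of the median genes removed 0 cells. No paired analysis was possible because the cells carry no replicate number that ties them to a mouse. With 28 and 16 cells of 1 capture, wide SDs between cells and no depth per cell, differences of single genes near 2 log2 units are imprecise. Leaving out 6 scar cells with few genes, also after seeing the data, moved the median over all genes in that class from 0.84 to 0.07.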
